A study of Mus musculus with 12 samples.

Results

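Cyp1a1, the cytochrome P450 whose transcription is the classical readout of the aryl hydrocarbon receptor (AHR), was described together with 7 other genes of that pathway in gonadal fat and ovaries, in mice given dihydrotestosterone (DHT) or placebo. The 8 genes, of 30176 genes on the array, were Cyp1a1, Cyp1a2, Cyp1b1 and Nqo1 (enzymes), Ahr and Arnt (the receptor and its partner), and Ahrr and Tiparp (its feedback repressors). Each was represented by 1 transcript cluster, the array's summary of all probes of a gene, and Cyp1a1 by TC0900000713.mm.1. The pathway was singled out because the difference in Cyp1a1 between DHT-treated and placebo-treated gonadal fat was already known, so that difference is given as a description and was not tested.

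C57BL/6J female mice received a silicone capsule with 5 mg of DHT, an androgen that cannot be aromatized to estrogen. It was implanted when they were 25 days old and stayed in place for about 60 days. Placebo-treated mice, the controls, received an empty capsule at the same age. Total RNA of either tissue was read on Affymetrix mouse transcriptome arrays, with 3 DHT arrays and 3 control arrays per tissue, 12 in all. The labels name 3 biological replicates per group and do not say whether tissue of several mice was pooled. Values are given as deposited, on the log2 scale, so that a difference of 1 is a 2-fold change. They are compared within a tissue and within a gene only, because gonadal fat arrays had medians of 3.30 to 3.52, and ovary arrays had medians of 4.35 to 4.43. A gene was tested in a tissue where 3 or more of the 6 arrays held it above their own median, and was called at an adjusted p of at most 0.10 in limma, a linear model that borrows the spread of all genes. Summed markers of oviduct epithelium set 3 ovary arrays apart, at 10.58 and 11.56 in DHT replicates 2 and 3 and 11.74 in control replicate 2, where the others had 8.03 to 8.11, so ovarian results are also given without the 2 highest. DHT replicate 2 stays in that fit. Its raised oviduct markers then lie among DHT-treated mice only, so the fit is not free of oviduct. Of the 8 genes, 7 passed the filter in gonadal fat and 5 in the ovaries. In gonadal fat, Cyp1b1, Ahr and Ahrr were among the clusters whose values had to be paired with their names again (as described with the processing). In whole tissue, fewer cells of a type and less RNA per cell cannot be told apart.

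The AHR is a transcription factor of the basic helix-loop-helix PAS family that rests in the cytoplasm with chaperones. Planar aromatic compounds, such as dioxins, and breakdown products of tryptophan bind it, and it then moves to the nucleus, pairs with ARNT and binds DNA at dioxin response elements that share the core GCGTG. Cyp1a1, Cyp1a2, Cyp1b1, Nqo1, Ahrr and Tiparp are known targets. AHRR competes with the receptor for ARNT, and TIPARP, an ADP-ribosyltransferase, marks the receptor and limits its action. The CYP1 enzymes oxidise the inducing compounds and also hydroxylate estradiol.

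Cyp1a1 was the member with the widest gap in gonadal fat. It had values of 8.48, 7.73 and 7.82 in DHT-treated mice, against 4.46, 5.11 and 5.21 in placebo-treated mice. All 3 values of DHT-treated mice lay more than 2 units above the highest control, and the groups did not overlap. The means were 8.01 ± 0.41 in DHT-treated and 4.93 ± 0.41 in placebo-treated mice (SD, n = 3 each), a difference of 3.08 (standard error 0.25), or 8.47-fold. Among 19251 genes tested in gonadal fat, the difference of Cyp1a1 ranked 3 by size of increase. Leaving out 1 array at a time gave differences between 2.84 and 3.22. All 6 values lay above the array medians, which alone does not show that the transcript was detected in placebo-treated mice. Inha, listed as a granulosa marker, had a mean of 5.56 on the same control arrays.

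**Figure D1:**
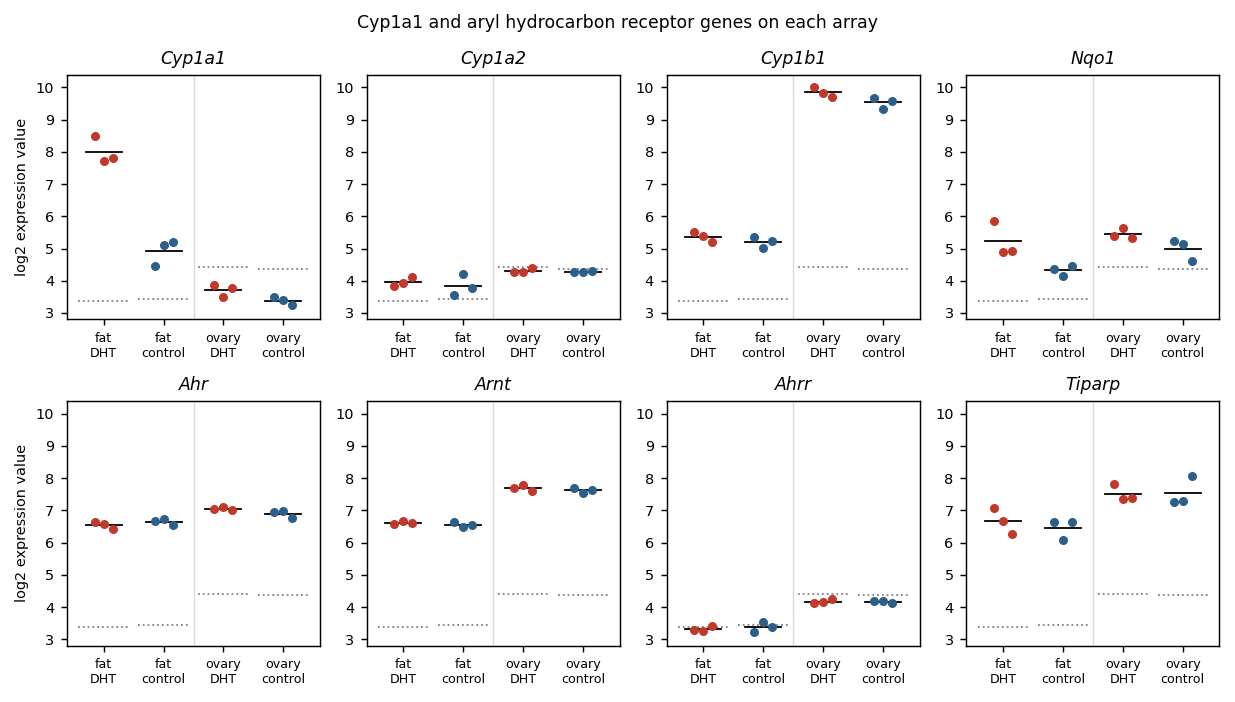
Each panel shows 1 gene, with the log2 expression value on the vertical axis and the 3 arrays of each group as points (red, DHT; blue, control; gonadal fat left, ovary right). Black bars are group means and dotted lines the mean array median of the group. Cyp1a1 in gonadal fat separates by group, with 8.01 against 4.93, whereas Ahr, Arnt, Ahrr and Cyp1a2 lie at similar heights in both groups of a tissue.

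The promoters are shown because they tell which members carry the letters that the receptor complex reads close to the transcription start. The 250 bases upstream of the start were taken from RefSeq (build GRCm38.p6), which held 7 of the 8 genes, all but Ahr. Below are those of Cyp1a1, with its neighbour and closest relative Cyp1a2, of Ahrr, which held the most matches, and of Nqo1, which held none. They read 5′ to 3′ on the strand of the gene, and capitals mark GCGTG or its reverse complement CACGC, the dioxin response core.
Cyp1a1, chr9:57697363-57697612, plus strand: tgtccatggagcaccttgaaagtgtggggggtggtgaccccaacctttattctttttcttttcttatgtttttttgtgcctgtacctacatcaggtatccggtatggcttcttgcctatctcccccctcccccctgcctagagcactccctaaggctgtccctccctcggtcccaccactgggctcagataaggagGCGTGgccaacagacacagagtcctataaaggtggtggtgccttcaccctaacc
Cyp1a2, chr9:57683656-57683905, minus strand: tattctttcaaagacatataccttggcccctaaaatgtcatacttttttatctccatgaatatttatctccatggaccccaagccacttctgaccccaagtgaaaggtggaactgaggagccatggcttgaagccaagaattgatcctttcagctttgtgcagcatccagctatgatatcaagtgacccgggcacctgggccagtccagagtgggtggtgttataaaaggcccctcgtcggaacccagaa
Ahrr, chr13:74292332-74292581, minus strand: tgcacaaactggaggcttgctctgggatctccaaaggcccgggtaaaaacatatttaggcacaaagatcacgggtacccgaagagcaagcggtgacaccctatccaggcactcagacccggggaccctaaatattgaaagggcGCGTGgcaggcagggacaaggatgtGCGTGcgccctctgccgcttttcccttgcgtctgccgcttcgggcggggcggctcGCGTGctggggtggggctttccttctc
Nqo1, chr8:107403206-107403455, minus strand: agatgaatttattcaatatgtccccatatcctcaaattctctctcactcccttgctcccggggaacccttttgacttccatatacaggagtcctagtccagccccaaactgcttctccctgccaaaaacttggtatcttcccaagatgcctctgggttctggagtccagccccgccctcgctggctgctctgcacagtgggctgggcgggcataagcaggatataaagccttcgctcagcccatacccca

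Cyp1a1 held 1 core, whose first base lay 54 bases upstream of the start used here. The RefSeq record of Cyp1a1 begins further upstream, at base 57687928 of chromosome 9, and the bases before that point were not searched. Tiparp, Arnt and Cyp1b1 also held 1 each and Ahrr held 3, whereas Cyp1a2 and Nqo1 held none. Of 32851 promoter windows of this length, 28.2% held the core on either strand. The antioxidant response core TGACNNNGC or its reverse complement GCNNNGTCA was found in Arnt, at 2 places, and in 10.2% of all windows. The androgen response half-site AGAACA or its reverse complement TGTTCT was in none of the 7 windows and in 16.1% of all. A match describes letters and not a bound site, and no match says only that the letters are not in these bases.

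Cyp1a2 is the next gene beside Cyp1a1 on chromosome 9 and runs on the opposite strand. In the liver it is induced by the AHR together with Cyp1a1. In gonadal fat it had values of 3.84, 3.93 and 4.11 in DHT-treated mice, against 3.55, 4.202 and 3.76 in placebo-treated mice, which overlap. The difference was 0.12 (95% confidence interval -0.26 to 0.50, limma adjusted p = 0.744). These values lay little above the array medians of 3.30 to 3.52. The transcript may not have been detected, so the lack of a call does not show that it stayed the same. Of the 8 protein-coding genes nearest to Cyp1a1, 4 on either side and Cyp1a2 included, limma called 0 in gonadal fat (1 at an unadjusted p under 0.05). Of all genes tested there 3.87% were called, so 0 of 8 is close to that share. The differences of the 8 ran from -0.11 to 0.29, below that of Cyp1a1, which was chosen for its difference.

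Cyp1b1, the CYP1 enzyme of stroma and steroid-responsive tissue, had values of 5.50, 5.402 and 5.20 in gonadal fat of DHT-treated mice, against 5.37, 5.00 and 5.24 in placebo-treated mice. The groups overlapped, and the difference was 0.16 (95% confidence interval -0.12 to 0.45, limma adjusted p = 0.558). Nqo1 encodes a quinone reductase that both the AHR and NRF2, the regulator of the antioxidant response, turn on. It had values of 5.86, 4.90 and 4.93 in DHT-treated mice, against 4.36, 4.15 and 4.44 in placebo-treated mice. The groups did not overlap, and replicate 1 of the DHT-treated mice was nearly 1 unit above the others of its group. The difference was 0.91 (standard error 0.24), or 1.88-fold, and did not pass the test (limma adjusted p = 0.114). Without that array the difference was 0.60 and passed (adjusted p = 0.0674), and over all alternatives the adjusted p ranged from 0.022 to 0.254. Of the 7 members tested in gonadal fat, 2 had groups that did not overlap, both higher in DHT-treated mice, where 14.5% of all genes tested did so in that direction. For Cyp1a1 the rule had used that contrast, so nothing is read from its share of this count.

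The receptor and its partner had nearly equal levels in gonadal fat of both groups. Ahr had values of 6.63, 6.57 and 6.42 in DHT-treated mice, against 6.67, 6.73 and 6.54 in placebo-treated mice. The groups overlapped, with a difference of -0.11 (95% confidence interval -0.33 to 0.11, limma adjusted p = 0.617). Arnt had values of 6.59, 6.66 and 6.60 in DHT-treated mice, against 6.63, 6.48 and 6.54 in placebo-treated mice, a difference of 0.06 (95% confidence interval -0.13 to 0.26, adjusted p = 0.74). The intervals of both genes leave out a change of 2-fold in either direction.

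The feedback repressors showed no difference larger than the spread between replicates. Tiparp had values of 7.06, 6.66 and 6.28 in gonadal fat of DHT-treated mice, against 6.64, 6.09 and 6.63 in placebo-treated mice, which overlap. The difference was 0.21 (95% confidence interval -0.29 to 0.71, limma adjusted p = 0.668). Ahrr had values of 3.29, 3.26 and 3.41 in DHT-treated mice, against 3.24, 3.52 and 3.38 in placebo-treated mice. All 6 lay below the medians of their arrays, so Ahrr was not tested and no fold change is given. Of the 6 members tested in gonadal fat besides Cyp1a1, limma called 0 (1, Nqo1, at an unadjusted p under 0.05), where 3.87% of the 19251 genes tested were called. The differences of the tested members were 3.08 for Cyp1a1, which was chosen for it, 0.91 for Nqo1 and between -0.11 and 0.21 for the others. Members were not tested against each other.

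In the ovaries, Cyp1a1 lay below the array medians on every array. It had values of 3.87, 3.50 and 3.78 in DHT-treated mice, against 3.50, 3.39 and 3.25 in placebo-treated mice. The lowest value of DHT-treated mice (3.504) and the highest of placebo-treated mice (3.501) nearly met, and the gene was not tested there. Cyp1a2 had values from 4.26 to 4.39 in DHT-treated and from 4.26 to 4.31 in placebo-treated mice, and Ahrr had values from 4.12 to 4.25 and from 4.12 to 4.19. Both were also below the medians on all 6 arrays.

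Cyp1b1, Nqo1 and Ahr each had slightly higher values in the ovaries of DHT-treated mice, with no overlap and no call. Cyp1b1 had values of 10.002, 9.82 and 9.71 in DHT-treated mice, against 9.68, 9.34 and 9.59 in placebo-treated mice, a difference of 0.31 (95% confidence interval 0.03 to 0.59, limma adjusted p = 0.315). Nqo1 had values of 5.38, 5.62 and 5.32 in DHT-treated mice, against 5.24, 5.13 and 4.63 in placebo-treated mice, a difference of 0.44 (95% confidence interval 0.03 to 0.85, adjusted p = 0.33). The lowest of these 6 values was control replicate 3, which also had the lowest Ahr. Ahr had values of 7.05, 7.10 and 7.004 in DHT-treated mice, against 6.95, 6.996 and 6.76 in placebo-treated mice, a difference of 0.15 (95% confidence interval -0.04 to 0.33, adjusted p = 0.491).

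Arnt and Tiparp overlapped between the groups in the ovaries. Arnt had values of 7.69, 7.78 and 7.59 in DHT-treated mice, against 7.71, 7.55 and 7.64 in placebo-treated mice, a difference of 0.05 (95% confidence interval -0.12 to 0.23, limma adjusted p = 0.855). Tiparp had values of 7.82, 7.36 and 7.39 in DHT-treated mice, against 7.26, 7.30 and 8.06 in placebo-treated mice. Its difference of -0.02 (95% confidence interval -0.59 to 0.56, adjusted p = 0.989) turned to 0.24 without control replicate 3, which held the highest value. Of the 5 members tested in the ovaries, limma called 0 (2, Cyp1b1 and Nqo1, at an unadjusted p under 0.05), where 1.26% of 19118 genes were called. The 3 of 5 without overlap, all higher in DHT-treated mice, stand beside 6.88% of all genes tested that did so in that direction. Without the 2 arrays highest in oviduct markers, the differences were 0.28 for Cyp1b1, 0.57 for Nqo1, 0.22 for Ahr, 0.06 for Arnt and -0.07 for Tiparp, and again 0 were called (adjusted p from 0.553 to 0.977). That fit had fewer arrays and called very few genes of any kind, so the lack of calls says little about the members.

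**Figure D2:**
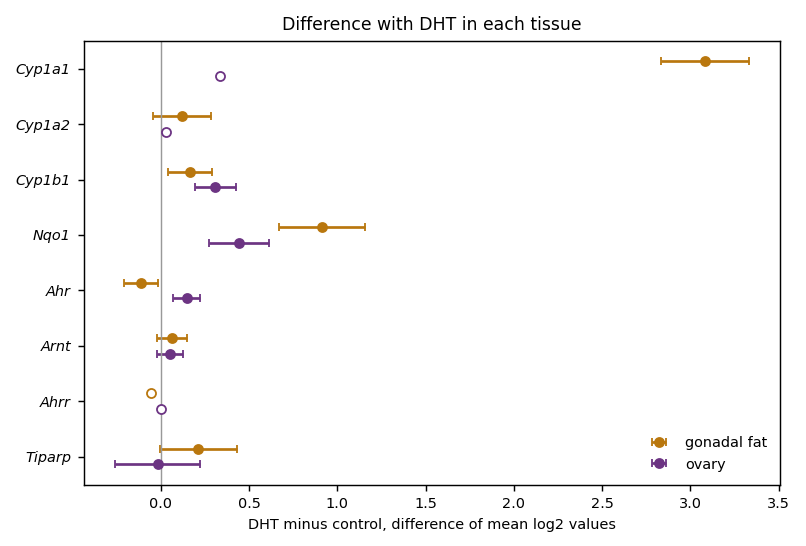
The horizontal axis gives the difference of mean log2 values, DHT minus control, for each member in gonadal fat (upper point of each pair) and in the ovary (lower point). Bars are standard errors from limma, and open points without bars are genes below the filter, which were not tested. Cyp1a1 in gonadal fat lies at 3.08, and the other tested members lie between -0.11 and 0.91.

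The effect of DHT was also compared between the tissues, with the effect in the ovaries subtracted from that in gonadal fat. Of the 5 members tested in both tissues, limma called 0 (0 at an unadjusted p under 0.05), where 6.14% of 18080 genes, 1110 in number, were called. With the mouse as a block across the tissues, presumed from replicate numbers since no label states it, 2237 genes and 0 of the members were called. With no filter on low values 1 member was called, Cyp1a1, from which nothing is read because its difference in gonadal fat had chosen it. Ahr had a difference between the effects of -0.26 (95% confidence interval -0.52 to 0.01, adjusted p = 0.27, and 0.162 with the block). Nqo1 had one of 0.47 (95% confidence interval -0.25 to 1.19, adjusted p = 0.454), so its higher mean was not shown to differ between the tissues. Cyp1a1 failed the filter in the ovaries and was not part of this comparison.

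Replicate 1 of the DHT-treated mice had the highest value of the 6 gonadal fat arrays for Cyp1a1, Cyp1b1, Nqo1 and Tiparp, 4 of the 7 members tested. Of all genes tested in gonadal fat, 27.1% were highest on that array. It was also the highest for all 8 tested genes of a list of NRF2 and antioxidant genes, and it had the lowest sum of smooth muscle markers (10.21, against 11.02 to 12.67 on the other arrays). The part of that array in the values of the members was not tested. Among these, Mgst3, a microsomal glutathione transferase, had values of 8.61, 7.95 and 8.17 in DHT-treated mice, against 6.98, 7.25 and 7.25 in placebo-treated mice. Mgst3 rose by 1.08 (standard error 0.17, limma adjusted p = 0.0241) and is also among the genes the study named from these arrays. The other 7 tested genes of that list had higher means in DHT-treated mice and did not pass.

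Beyond the members, 54 genes were listed for their roles around the receptor, of which 40 had a transcript cluster with that symbol alone. Of 34 tested in gonadal fat, 5 rose, 1 fell and 28 did not pass, where 2.65% of all genes tested rose and 1.22% fell. Their median difference was 0.14, beside -0.01 over all genes tested. Of those that rose, Tdo2 and Sult1e1 passed the filter through the DHT-treated mice alone, so that a difference was needed for them to be tested. Leaving both out, 3 of 32 rose, with a median difference of 0.13. Sult1e1 and Mgst3 were named by the study on these samples, so their place in this count is no independent evidence. Of 32 tested in the ovaries, 1 rose, 0 fell and 31 did not pass, where 0.544% of all genes rose and 0.717% fell. The median difference there was 0.02, beside -0.00384 over all genes tested.

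Tdo2, which starts the breakdown of tryptophan towards kynurenine, a ligand of the AHR, had values of 5.68, 4.06 and 4.07 in gonadal fat of DHT-treated mice, against 2.83, 2.70 and 2.76 in placebo-treated mice. The 3 control values were below the array medians, and replicate 1 of the DHT-treated mice was the highest, as for Cyp1a1 and Nqo1. Against those medians the difference was at least 1.16, while limma's fit gave 1.84 (standard error 0.39, adjusted p = 0.0614). With no filter on low values its adjusted p was 0.0974. Tdo2 lost its call in each of the 3 fits without 1 control array (adjusted p up to 0.179) and failed the filter without any 1 of the DHT arrays. Of the other enzymes of tryptophan breakdown, Ido2 and Kyat1 did not pass the test, and Ido1, Kmo, Kynu and Aadat were below the filter.

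Sult1e1, which sulfates and inactivates estrogens, had values of 7.46, 7.03 and 6.13 in gonadal fat of DHT-treated mice, against 1.93, 2.13 and 1.85 in placebo-treated mice, a difference of at least 3.42 against the array medians (limma adjusted p = 0.0014, and 0.0028 with no filter on low values). In the ovaries Sult1e1 had values of 6.05, 4.198 and 4.72 in DHT-treated mice, against 2.40, 2.48 and 2.48 in placebo-treated mice, and was not tested because only 2 arrays, both of DHT-treated mice, exceeded their medians. Alas1 encodes the enzyme of the first step towards the haem that P450 enzymes carry. In gonadal fat it had values of 9.17, 8.72 and 8.71 in DHT-treated mice, against 8.15, 8.08 and 8.34 in placebo-treated mice. It rose by 0.68 (standard error 0.14, adjusted p = 0.0614) and lost its call in 4 of 6 fits without 1 array. Ncoa1, a coactivator of nuclear receptors, rose by 0.43 (adjusted p = 0.0901) and lost its call in 5 of those 6 fits. Parp10, an ADP-ribosyltransferase of the same family as TIPARP, fell by 0.48 (adjusted p = 0.0482), with values of 5.42, 5.29 and 5.38 in DHT-treated mice, against 5.72, 5.90 and 5.91 in placebo-treated mice, and lost its call in 4 of the 6. With each array centred on its median, Ncoa1, Alas1, Tdo2 and Parp10 did not pass (adjusted p of 0.151, 0.104, 0.101 and 0.107), whereas Sult1e1 and Mgst3 did.

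Of the 4 further AHR target genes tested in gonadal fat, Nqo1 included, limma called 0 (2, Nqo1 and Cyp2s1, at an unadjusted p under 0.05), where 3.87% of all genes tested were called. Cyp2s1, a P450 enzyme of epithelia that was picked for mention after its values were seen, had values of 5.24, 5.27 and 5.28 in DHT-treated mice, against 5.57, 5.73 and 5.52 in placebo-treated mice, a difference of -0.35 (limma adjusted p = 0.106). In the ovaries, Gsta2, a glutathione transferase, had values of 7.09, 7.28 and 7.15 in DHT-treated mice, against 5.56, 5.48 and 5.96 in placebo-treated mice, with no overlap. It rose by 1.504 (standard error 0.13, adjusted p = 0.0147), while without the 2 arrays highest in oviduct markers the difference was 1.42 and did not pass (adjusted p = 0.218). That fit had fewer arrays and called very few genes of any kind, so the lost call says little. The probes of Gsta2 may also read the near-identical Gsta1, which had no cluster of its own here. In gonadal fat Gsta2 lay below the array medians on every array.

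**Figure D3:**
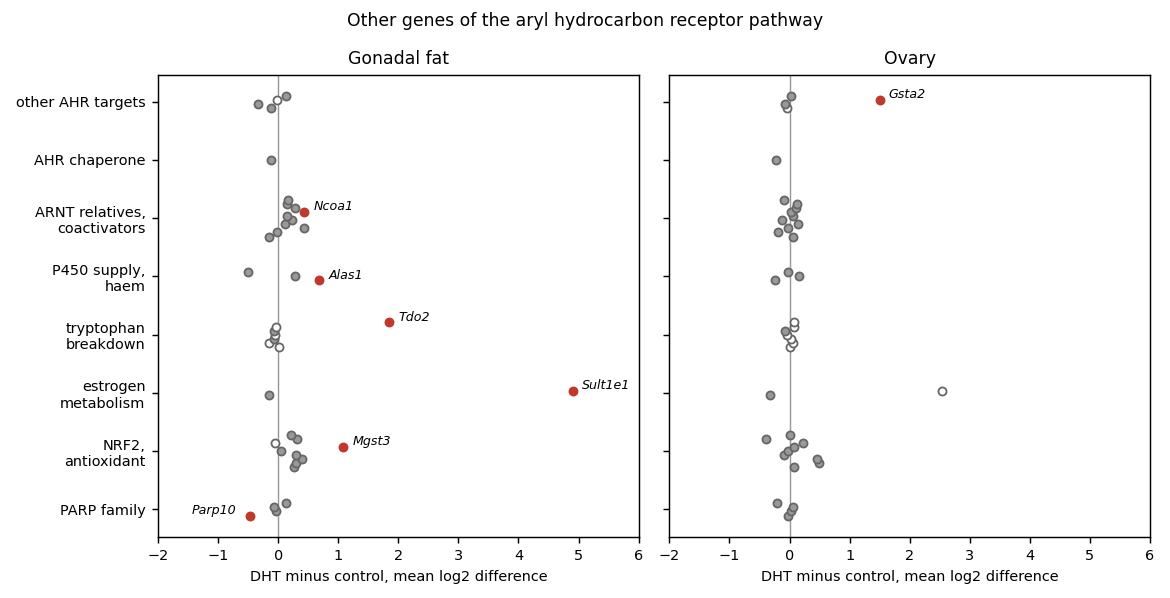
Each point is 1 of the 40 other pathway genes, grouped by role, at its difference of mean log2 values, DHT minus control, in gonadal fat (left) and in the ovary (right). Red points with names passed the test, grey points did not, and open points were below the filter. In gonadal fat 5 genes rose and Parp10 fell, and in the ovary Gsta2 rose.

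The genes with a profile closest to that of Cyp1a1 were sought among 13986 named genes that passed the filter in gonadal fat. Each gene was centred within each tissue, and likeness was the root mean square difference from Cyp1a1 over the 12 arrays, on the log2 scale. By this measure the closest were Lep (0.447), C6 (0.462), Adap2 (0.532), Tdo2 (0.538) and Nnat (0.538). A gene that stayed at its tissue mean on every array would have had a difference of 1.13. Since Cyp1a1 was chosen for its difference in gonadal fat, these genes were certain to differ there too, and they were not tested for it.

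Lep, the adipocyte hormone leptin, had values of 9.87, 9.71 and 10.04 in gonadal fat of DHT-treated mice, against 7.48, 7.996 and 7.91 in placebo-treated mice. C6, a component of the terminal complement complex, had values of 7.38, 7.52 and 6.91 in DHT-treated mice, against 5.30, 4.31 and 4.90 in placebo-treated mice. In both genes the groups lay well apart, as in Cyp1a1, with differences of 2.08 and 2.43. Adap2 had a difference of 1.94 and Nnat, an imprinted gene known as neuronatin, one of 2.08. In the ovaries the same 5 genes had differences between -0.01 and 0.22. The ovary arrays were part of the likeness measure, so the choice itself favoured small differences there. Tdo2 lay below the array medians on every ovary array.

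**Figure D4:**
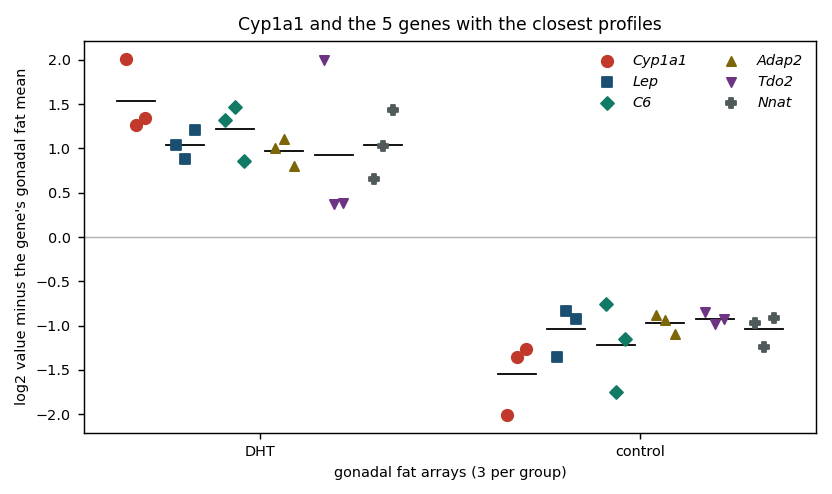
The vertical axis gives the log2 value minus the gene's mean over the 6 gonadal fat arrays, for Cyp1a1 and the 5 genes with the closest profiles, with the 3 arrays of a group as points (DHT left, control right) and group means as black bars. Cyp1a1 has the widest gap, and Tdo2 shares its highest point, which is the same array (DHT replicate 1).

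Marker genes of the cell types that these tissues hold were read on the same arrays, as the log2 of their summed linear values. In gonadal fat, 6 adipocyte markers summed to between 13.19 and 13.39 in DHT-treated mice, against 12.84 to 13.03 in placebo-treated mice. For 6 endothelial markers the sums were 11.06 to 11.20 in DHT-treated and 10.84 to 11.02 in placebo-treated mice. In 6 mesothelial markers they were 8.38 to 9.16 in DHT-treated and 9.20 to 9.60 in placebo-treated mice. The adipocyte list holds Lep. For 5 oviduct markers the sums were 7.03 to 7.14 in DHT-treated and 7.17 to 7.43 in placebo-treated mice. Among them only Krt7 was called (difference -0.44, limma adjusted p = 0.0693). Pax8, Sox17 and Wfdc2 overlapped between the groups (adjusted p from 0.778 to 0.936), and Ovgp1 was below the filter. For 4 corpus luteum markers the sums were 5.50 to 5.67 in DHT-treated and 5.99 to 6.07 in placebo-treated mice. Of these 4, Cyp11a1 and Akr1c18 lay below the array medians throughout. Alas2, the only red blood cell marker measured, had values of 6.45, 5.68 and 5.80 in DHT-treated mice, against 5.56, 5.37 and 5.45 in placebo-treated mice. Its difference of 0.52 was not called (limma adjusted p = 0.228). Alas2 was highest on DHT replicate 1, as were Cyp1a1, Nqo1, Tdo2 and 27.1% of all genes tested in gonadal fat. None of these lists overlapped between the groups, and their part in the difference of Cyp1a1 was not tested.

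The 6 macrophage markers (10.49 to 10.70 in DHT-treated, 9.78 to 10.59 in placebo-treated mice) and 6 smooth muscle markers (10.21 to 11.52 in DHT-treated, 11.02 to 12.67 in placebo-treated mice) overlapped between the groups in gonadal fat. Of 5 hepatocyte markers, a cell type known for high Cyp1a2, Apoa2 and Cyp3a11 lay below the array medians on all 6 gonadal fat arrays. The summed hepatocyte list was 12.26 to 12.44 in DHT-treated and 11.87 to 12.13 in placebo-treated mice, and nearly all of it was Cyp2e1, which adipocytes also express. Alb, the hepatocyte albumin gene, had values of 5.69, 4.82 and 5.02 in DHT-treated mice, against 3.99, 3.75 and 4.48 in placebo-treated mice, without overlap (difference 1.10, limma adjusted p = 0.0755). Ttr, another hepatocyte marker, had values of 3.28, 3.38 and 3.47 in DHT-treated mice, against 3.33, 3.53 and 3.38 in placebo-treated mice, which overlap (difference -0.03, adjusted p = 0.878). The part of the hepatocyte markers in the difference of Cyp1a1 was not tested either. In the ovaries, 4 corpus luteum markers summed to between 10.53 and 11.15 in DHT-treated mice, against 12.27 to 13.55 in placebo-treated mice. The 6 adipocyte markers summed to 8.44 to 9.14 there in DHT-treated and 9.32 to 10.12 in placebo-treated mice. The part of these shifts in the ovarian values of Cyp1b1, Nqo1, Ahr and Gsta2 was not tested.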

How the data were processed

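RNA of 12 samples was measured on Affymetrix mouse transcriptome arrays. The authors deposited log2 values, 1 per transcript cluster and array, from 0.698 to 13.2. MAS5 is named in the submitters' processing notes. How arrays were normalized, and the genome build, are not given in the sources used here. Values entered the fits as deposited. Precision is limited by having 3 arrays per group.

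Of 65929 clusters, 30638 carried 1 gene symbol, 2176 several and 33115 none, and only the first were used. Each gene was represented by its brightest cluster over the 12 arrays. In the gonadal fat columns, 26501 clusters (chromosomes 10 to 19 and 58 unplaced ones of chromosome 1) carried values of other clusters. Sorting the names with "_" ahead of the digits paired them again. Across these clusters the Pearson's r of the tissue means was 0.0139 as deposited and 0.946 after it, against 0.943 over the others, a correlation across genes, which are not independent replicates.

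Each tissue was fitted on its own with lmFit and eBayes of limma 3.58.1 under R 4.3.3, with p-values adjusted by Benjamini and Hochberg over all genes tested. An exact permutation test of 3 against 3 cannot give a p below 0.10. The methods name SAM, which was not run. The labels do not say that replicates are separate mice, so p-values measure the spread between these arrays. Deviations from the group means correlated across genes between equally numbered arrays of the 2 tissues, with r of 0.110 to 0.192. Between differently numbered arrays of the 2 tissues, within a treatment, r was at most 0.0314. Within a tissue, differently numbered DHT and control arrays reached r of 0.742 (ovary) and 0.608 (gonadal fat). Correlation can thus arise without a shared mouse. Numbers were taken to pair the tissues of a mouse, which no label states and these values do not settle. Alternatives changed the normalization (quantile, median centring), the filter (none, 75th percentile), and further the mean of a gene's clusters, an intensity trend, 12 arrays in 1 fit, a replicate block, other call thresholds, the deposited row order and leaving out each array. Tables, promoter motifs and figures used Python 3.11.15.

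The rule for genes to name took the 8 members, every pathway gene called, and the 5 profiles closest to Cyp1a1. Cyp2s1, the other tryptophan enzymes and single marker genes were named besides, after their values were seen. The members and lists were chosen with earlier results of these data known.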

Additional observations from a re-analysis of the deposited data

How the results depend on the processing

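Over 17 alternatives, the difference of Cyp1a1 in gonadal fat ran from 2.84 (without DHT replicate 1) to 3.22 (without DHT replicate 2). Only quantile normalization, median centring and leaving out arrays could change it. The other settings leave its group means at the same values, and the gene was chosen for this difference. The count of members called in the ovaries stayed at 0 throughout. Cyp1a1 was chosen for its contrast in gonadal fat, so its own calls there are not counted. Among the other members, only Nqo1 was called there in any alternative. It was called in a joint fit of the 12 arrays, with the replicate block and without DHT replicate 1. Replicate numbers shared by DHT and control arrays of a tissue did not pair them (r between -0.475 and 0.330 across genes), and the replicate block gave 3 genes called in the ovaries and 1122 in gonadal fat, and ended the call of Gsta2 (adjusted p = 0.105). The joint fit gave 439 ovarian and 1923 gonadal fat genes, median centring 456 in gonadal fat, and the presumed mouse as a block 2237 for the tissue difference. At an adjusted p of at most 0.05 the counts were 336 in gonadal fat, 87 in the ovaries and 531 for the tissue difference. A further demand of a 2-fold change left 110, 62 and 163. Leaving out single arrays gave 138 (DHT replicate 2) to 634 genes in gonadal fat, 43 (DHT replicate 3) to 181 in the ovaries and 520 (ovary control replicate 3) to 2050 for the tissue difference. Fits without fat DHT replicate 1, control replicate 2 or control replicate 3 also fell by over 1.5 times, to 477, 433 and 214, and so did those without ovary DHT replicates 1 and 2 and control replicates 2 and 3 (49, 52, 66 and 55). For the tissue difference, those without ovary DHT replicates 1, 2 and 3, ovary control replicate 2, fat DHT replicate 2 and fat control replicate 3 gave 687, 577, 681, 545, 601 and 659, and the 2050 came without fat DHT replicate 3. Without both ovary arrays highest in oviduct markers, chosen after seeing the data, 4 genes were called. Among uncalled members, directions turned for small differences. Arnt's tissue difference was -0.0574 after quantile normalization and -0.0370 to 0.0586 without single arrays, Tiparp's was -0.0274 to 0.43, Tiparp in the ovaries was -0.17 to 0.24, and Cyp1a2 in gonadal fat was -0.0207 to 0.30. Parp10, called as lower in gonadal fat, turned to 0.0803 in the deposited row order, where its row held values of another cluster. With no filter on low values the count of members called for the tissue difference was 1 (Cyp1a1), from which nothing is read. Sult1e1 and Tdo2 could not be fitted without any 1 DHT array of gonadal fat, since they then failed the filter. The causes of these changes were not tested.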
